A study of Mus musculus with 18 samples.

Results

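Stefins are small cytosolic inhibitors of cysteine proteases, and mouse stefin A is encoded by a cluster of closely similar genes. The members were taken by gene name from the expression table: Stfa1, Stfa2, Stfa3, Stfa2l1, Cstdc4, Cstdc5 and Cstdc6, which are 7 genes of the stefin A cluster, and Cstb, which encodes stefin B. They are 8 of the 56876 genes in the table, and all 8 are among the 16635 genes tested. The list was drawn up after the difference between tumour-bearing and tumour-free spleens of code I had been seen, so that difference is described here without a test. Earlier results on the other comparisons were known too, and their p-values carry that limit. Cstb is not a stefin A gene, and the values below set it apart from the other 7.

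Stefins close the active site of papain-like cysteine proteases such as cathepsins B, H, L and S, reversibly and without cleaving a bond. They carry no signal peptide and act inside the cell, whereas the secreted cystatins, such as cystatin C, act outside it. In mice, stefin A transcripts are known from neutrophils and their bone marrow precursors, and stefin B is made in nearly every cell type.

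RNA of unsorted spleen cells was sequenced from female Balb/c mice, with 3 libraries in each of 6 groups. Mice with title code T received 4T1 cells, a mouse mammary carcinoma line that stands in for triple-negative breast tumours, in the mammary pad on day 0, and mice with code N did not. The design text states intraperitoneal antibodies against G-CSF, the cytokine that drives neutrophil production, or against PD-1, a T cell checkpoint receptor, or a control antibody against IgG, at 10 mg/kg on days 18, 21 and 24, and collection on day 29. The groups were T_GC (libraries 10, 21 and 37), T_P (26, 39 and 43), T_I (8, 12 and 27), N_GC (11, 36 and 94), N_P (17, 29 and 38) and N_I (18, 92 and 96). The labels do not spell out GC, P and I. The other tags do not match the titles: anti-PD-1 is given as the treatment of all T libraries, WT as that of all N libraries, and tumour-bearing mice as the cell type throughout. The groups are therefore given by the codes of the titles. The labels do not say whether the libraries of a group came from separate mice, and p-values measure the spread between these libraries.

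Levels are TPM, the share of each gene among all transcripts after correction for length, so levels of different genes can be compared. Each library adds up to the same total, sequencing depth is unknown, and a rise of abundant genes lowers all others. Markers of B and T cells were present in every library, with B cell marker sums of 1685 to 2727 TPM in T_GC, 461 to 738 TPM in T_P and 2576 to 3019 TPM in N_P. The median log2 fold change of all 16635 genes was -0.41 for T_P against N_P, -0.09 for T_GC against N_GC and 0.39 for T_GC against T_P. Library 12 of T_I and library 37 of T_GC stood above the other libraries of their groups in stefin A transcripts, and main values that rest on them are also given without them.

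The copies are shown first because their likeness limits what a level of 1 copy means. Below is the stretch of each coding sequence around the codons of the conserved Gln-Xaa-Val-Xaa-Gly motif of cystatins, a loop that enters the protease's active site. Sequences are coding-strand bases from GENCODE M21 (GRCm38), and the capitals mark the motif's 15 bases.
Stfa1: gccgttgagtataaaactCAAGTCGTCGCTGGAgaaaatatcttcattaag
Cstdc5: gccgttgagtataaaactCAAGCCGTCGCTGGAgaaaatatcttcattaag
Cstdc6: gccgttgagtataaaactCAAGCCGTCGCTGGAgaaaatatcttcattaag
Stfa2: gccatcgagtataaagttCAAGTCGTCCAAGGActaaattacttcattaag
Stfa2l1: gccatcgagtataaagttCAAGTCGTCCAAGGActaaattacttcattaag
Cstdc4: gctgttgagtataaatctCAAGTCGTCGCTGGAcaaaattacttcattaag
Stfa3: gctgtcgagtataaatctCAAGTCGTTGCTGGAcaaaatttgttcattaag
Cstb: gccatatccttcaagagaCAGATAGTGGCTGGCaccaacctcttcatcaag
The stretch was identical in Stfa2 and Stfa2l1, and in Cstdc5 and Cstdc6, and the motif bases were also identical in Stfa1 and Cstdc4. Over the aligned bases of the coding sequences, gaps left out, the 21 pairs of stefin A genes were 77.7% to 97.9% identical (median 81.6%). Cstb was 56.9% to 71.2% identical to them. The closest pairs were Stfa1 with Cstdc5 (97.9%), Stfa2 with Stfa2l1 (96.4%) and Cstdc5 with Cstdc6 (96.2%). For Stfa1 with Cstdc5, 291 bases were aligned, and the coding sequence of Stfa1 has 384. In transcripts of 387 to 619 bases, 33.7% of the 50-base windows of Cstdc6, 31.8% of those of Cstdc5, 25.4% of those of Stfa1, 16.8% of those of Stfa2l1 and 14.7% of those of Stfa2 also occurred in another member. No such window of Stfa3, Cstdc4 or Cstb did. Of the 100-base windows, 13.5% of those of Cstdc6, 13.1% of those of Cstdc5 and 1.93% of those of Stfa1 did, and none of the other members. Other genes of the cluster were not compared, so windows shared with them are unknown. The levels of the 5 genes with shared 50-base windows are uncertain as single values, and the sum over the 7 stefin A genes (the stefin A sum) is given beside them.

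In the GENCODE M21 order of protein-coding genes on chromosome 16, Stfa2l1, Cstdc4 and Stfa1 lie on the plus strand and Cstdc6, Cstdc5, Stfa2 and Stfa3 follow on the minus strand. The cluster also holds Csta1 and 2 genes now named Csta2 and Csta3, which are not on the list. Cstb lies on chromosome 10.

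Upstream sequence is shown because the 7 genes moved together between groups. RefSeq gave a promoter window (250 bases before to 50 bases after the start) for 6 of the 8 members. The bases before the start are printed for each, in the gene's own direction, on GRCm38.p6 and from the C57BL/6J reference rather than the Balb/c genome of these mice. Capitals mark the first 3 of 4 runs of at least 10 bases that all 6 windows share.
Stfa1, chr16:36277028-36277147, plus strand: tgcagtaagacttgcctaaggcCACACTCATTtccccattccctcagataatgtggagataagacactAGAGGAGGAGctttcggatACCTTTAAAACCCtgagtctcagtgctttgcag
Cstdc5, chr16:36367571-36367690, minus strand: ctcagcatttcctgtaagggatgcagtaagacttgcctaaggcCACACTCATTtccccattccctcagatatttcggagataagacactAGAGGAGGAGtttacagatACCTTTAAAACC
Stfa2, chr16:36408364-36408483, minus strand: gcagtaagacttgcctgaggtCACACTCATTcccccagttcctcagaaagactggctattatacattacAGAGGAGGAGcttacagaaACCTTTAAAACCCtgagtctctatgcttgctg
Stfa2l1, chr16:36156691-36156810, plus strand: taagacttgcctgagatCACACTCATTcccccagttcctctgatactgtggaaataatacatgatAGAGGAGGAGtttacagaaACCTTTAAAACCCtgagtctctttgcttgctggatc
Cstdc4, chr16:36184092-36184211, plus strand: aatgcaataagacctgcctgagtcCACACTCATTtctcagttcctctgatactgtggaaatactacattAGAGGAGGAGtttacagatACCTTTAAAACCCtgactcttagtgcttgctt
Stfa3, chr16:36455393-36455512, minus strand: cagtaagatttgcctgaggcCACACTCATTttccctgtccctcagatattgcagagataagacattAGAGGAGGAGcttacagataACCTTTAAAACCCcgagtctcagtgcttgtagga
Over their aligned bases, gaps left out, the windows were 70.3% to 96.4% identical in the 15 pairs (median 82.5%). On the gene's strand, ACCTTTAAAACCC occurred in 9 of all 32851 RefSeq windows (0.0274%), CACACTCATT in 26 (0.0791%) and AGAGGAGGAG in 192 (0.5845%), these 6 included; the runs were picked from these windows. In Cstdc5 the last base of the third run lies beyond the printed stretch, and the fourth shared run, GATCATTTCTTCT, begins within a few bases of the start, before it in Stfa3 and Stfa2l1, and further into the gene in Cstdc5. Letters typical of neutrophil regulators were searched on both strands of the windows. TTGCNNAA (C/EBP type) was in 2 of the 6, Stfa1 and Cstdc5, against 10.8% of all windows. These 2 windows are 96.4% identical and their matches read alike, so they are not separate cases. GAGGAAG (PU.1 type) was in 3 of the 6, against 13.6%. TTCNNNGAA (STAT type) was in 1 of the 6, against 8.30%, and TATAAA was in 0, against 13.6%. None of these matches overlapped another, and they describe letters, not bound sites.

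Stefin A transcripts were far higher in tumour-bearing than in tumour-free spleens of code P. The stefin A sum averaged 6169 ± 649 TPM in T_P and 59.9 ± 26.9 TPM in N_P (SD, n = 3 each), a 103-fold difference of the means. All 8 members were called higher by limma at an adjusted p of 0.05, whereas 18.9% of all genes tested were called higher. The median log2 fold change of the 7 stefin A genes was 7.43, against -0.41 for all genes. In spleen tissue, a change in the number of cells of a type and a change in RNA per cell cannot be told apart.

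Stfa2 and Stfa3, both stefin A inhibitor genes, had the largest log2 fold changes. Stfa2 stood at 775, 1066 and 909 TPM in the 3 T_P libraries, against 4.33, 2.94 and 2.72 TPM in the 3 N_P libraries. Stfa3 stood at 616, 767 and 674 TPM in T_P, against 3.01, 3.92 and 0.39 TPM in N_P. The T_P libraries lay close together, far above every N_P library. The limma log2 fold change on the log2(TPM + 1) scale was 7.73 ± 0.58 for Stfa2 (SE, adjusted p = 1.99e-08) and 7.83 ± 0.59 for Stfa3 (adjusted p = 2.17e-08). This scale understates folds of genes near 0, and the ratio of mean TPM was 275 for Stfa2 and 281 for Stfa3.

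Cstdc5 and Cstdc6, cystatin-domain genes of the same cluster, were the most abundant members in T_P. Cstdc5 stood at 1314, 1565 and 1323 TPM in T_P, against 15.1, 4.9 and 4.53 TPM in N_P. Cstdc6 stood at 1129, 1248 and 1184 TPM in T_P, against 7.61, 6.01 and 3.03 TPM in N_P. Library 17 was the highest of N_P for both, and the groups did not overlap. Their log2 fold changes were 7.43 ± 0.54 (Cstdc5, adjusted p = 1.41e-08) and 7.57 ± 0.49 (Cstdc6, adjusted p = 3.96e-09).

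Stfa2l1 and Cstdc4, the stefin A genes with the highest levels in tumour-free spleens, had smaller log2 fold changes. Stfa2l1 stood at 862, 1132 and 996 TPM in T_P, against 32.9, 14.9 and 23.0 TPM in N_P. Cstdc4 stood at 887, 1072 and 910 TPM in T_P, against 25.4, 7.99 and 13.4 TPM in N_P. Again no T_P library overlapped N_P. The log2 fold changes were 5.40 ± 0.44 for Stfa2l1 (adjusted p = 4.63e-08) and 5.99 ± 0.61 for Cstdc4 (adjusted p = 5.58e-07). Stfa1, the least abundant, stood at 23.8, 28.9 and 23.5 TPM in T_P, against 2.29, 0.58 and 0.73 TPM in N_P, a log2 fold change of 3.66 ± 0.49 (adjusted p = 9.07e-06).

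**Figure D1:**
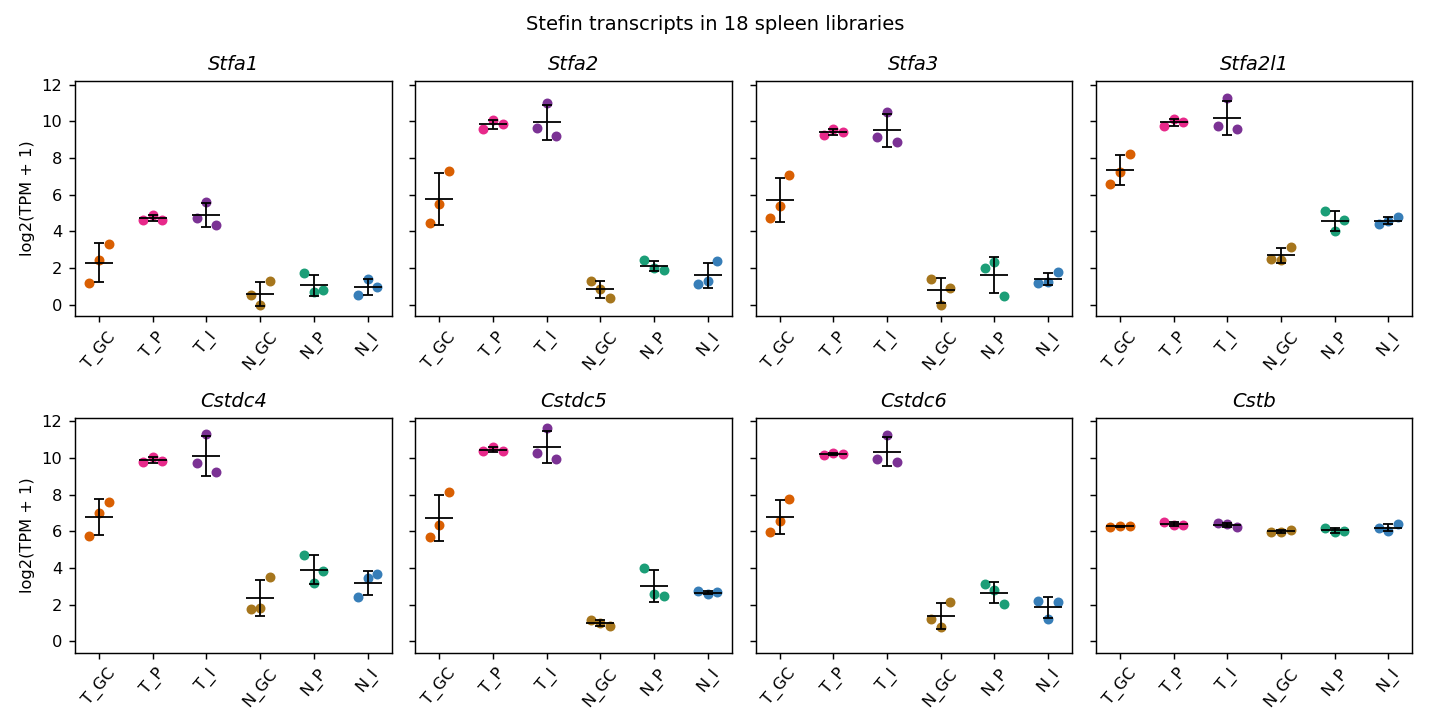
Level of each member, as log2(TPM + 1), in the 18 libraries by group; points are libraries, the horizontal line is the mean of 3 and bars are the SD. The 7 stefin A genes are high in T_P and T_I, intermediate in T_GC and low in the N groups, and Cstb lies at 60.2 to 90.5 TPM in every library.

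With code GC, stefin A transcripts were again higher in tumour-bearing spleens, from lower levels in both groups. The stefin A sum was 308, 540 and 1282 TPM in T_GC, against 12.96, 9.40 and 24.8 TPM in N_GC, and the groups did not overlap. Their means were 710 ± 509 and 15.7 ± 8.05 TPM (SD, n = 3 each), a 45.2-fold difference. Library 37 was the highest of T_GC, and without it the log2 ratio of the means was 4.75, against 5.50 with it. All 8 members were called higher, whereas 14.3% of all genes were (18.9% were called lower), and the median of the 7 was 4.93 against -0.09 for all genes.

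Among the members, Cstdc5 had the largest log2 fold change between T_GC and N_GC. Cstdc5 stood at 51.2, 78.8 and 280 TPM in T_GC, against 1.2, 0.97 and 0.78 TPM in N_GC, and its log2 fold change was 5.74 ± 0.54 (limma adjusted p = 1.55e-06). Cstdc6 stood at 62.1, 93.1 and 218 TPM in T_GC, against 1.35, 0.69 and 3.37 TPM in N_GC, a log2 fold change of 5.40 ± 0.49 (adjusted p = 1.03e-06). In both, library 37 was more than the sum of the other T_GC libraries. Without library 37 the log2 fold change was 5.03 for Cstdc5 and 4.90 for Cstdc6.

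Stfa2 stood at 21.1, 44.2 and 154 TPM in T_GC, against 1.4, 0.78 and 0.29 TPM in N_GC, a log2 fold change of 4.93 ± 0.58 (limma adjusted p = 1.45e-05). Stfa3 stood at 25.4, 40.1 and 133 TPM in T_GC, against 1.6, 0 and 0.9 TPM in N_GC, a log2 fold change of 4.95 ± 0.59 (adjusted p = 1.67e-05). Every T_GC library exceeded every N_GC library. Without library 37 the values were 4.16 for Stfa2 and 4.27 for Stfa3, and without library 10 the value for Stfa2 was 5.57.

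Stfa2l1 stood at 94.5, 152 and 294 TPM in T_GC, against 4.59, 4.38 and 7.79 TPM in N_GC, a log2 fold change of 4.66 ± 0.44 (limma adjusted p = 1.49e-06). Cstdc4 stood at 52.0, 127 and 194 TPM in T_GC, against 2.41, 2.58 and 10.2 TPM in N_GC, a log2 fold change of 4.42 ± 0.61 (adjusted p = 6.63e-05). Neither gene's groups overlapped, and without library 37 the values were 4.24 for Stfa2l1 and 4.00 for Cstdc4. Stfa1 was low, with 1.23, 4.35 and 8.81 TPM in T_GC, against 0.41, 0 and 1.46 TPM in N_GC, and its groups overlapped. Its log2 fold change of 1.69 ± 0.49 (adjusted p = 0.0157) lost the call without library 37 of T_GC (adjusted p = 0.0757) and without library 36 of N_GC (adjusted p = 0.0711). In the fit of the T_GC and N_GC libraries alone it lost the call too (adjusted p = 0.102).

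Among tumour-bearing spleens, stefin A transcripts were lower with code GC than with code P. The stefin A sum was 8.69-fold lower in T_GC than in T_P, a log2 ratio of -3.12 and of -3.86 without library 37. All 7 stefin A genes were called lower, whereas 12.7% of all genes were called lower and 49.1% higher. The median log2 fold change of the 7 was -3.44, against 0.39 for all genes. No T_GC library reached any T_P library for any of the 7. How many of all genes separated in this way was not counted.

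The fall was steepest for Stfa2 and least for Stfa1. Stfa2 averaged 73.1 ± 71.0 TPM in T_GC and 917 ± 146 TPM in T_P (SD, n = 3 each), a limma log2 fold change of -4.08 ± 0.58 (adjusted p = 2.89e-05), of -4.85 without library 37 and of -3.44 without library 10. Cstdc5 averaged 137 ± 125 TPM in T_GC and 1401 ± 142 TPM in T_P, a log2 fold change of -3.73 ± 0.54 (adjusted p = 3.44e-05) and of -4.44 without library 37. Stfa3 averaged 66.1 ± 58.3 TPM in T_GC and 686 ± 76.3 TPM in T_P, a log2 fold change of -3.70 ± 0.59 (adjusted p = 8.33e-05) and of -4.38 without library 37. The SD in T_GC was nearly as large as the mean for these 3 genes, with library 37 the highest. Cstdc6 (-3.44 ± 0.49), Cstdc4 (-3.12 ± 0.61), Stfa2l1 (-2.61 ± 0.44) and Stfa1 (-2.43 ± 0.49) fell as well, with adjusted p-values between 2.81e-05 and 0.000599. Without library 37 these 4 values were -3.95 for Cstdc6, -3.53 for Cstdc4, -3.04 for Stfa2l1 and -2.93 for Stfa1.

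Among tumour-free spleens, the stefin A sum was 12.96, 9.40 and 24.8 TPM in N_GC and 90.7, 41.2 and 47.8 TPM in N_P. The groups did not overlap, and the means differed 3.81-fold. By limma, 0 of the 8 members were called, where 1.17% of all genes were called in either direction, and 5 of the 8 had an unadjusted p under 0.05, as had 14.3% of all genes. Stfa2l1 came closest, at 4.59, 4.38 and 7.79 TPM in N_GC and 32.9, 14.9 and 23.0 TPM in N_P. Its log2 fold change was -1.87 ± 0.44 (adjusted p = 0.0538), and Cstdc5 followed with -2.03 ± 0.54 (adjusted p = 0.0849). At most 2 members were called when any 1 library was left out or a pseudocount of 0.1 was used.

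Whether the tumour difference itself differed between the codes was tested as the interaction, (T_GC minus N_GC) minus (T_P minus N_P). It was negative for Stfa3 (-2.88 ± 0.84, limma adjusted p = 0.0141), Stfa2 (-2.81 ± 0.82, adjusted p = 0.0144), Cstdc6 (-2.17 ± 0.69, adjusted p = 0.0222) and Stfa1 (-1.97 ± 0.69, adjusted p = 0.0356). These 4 of 8 members were called lower, whereas 8.15% of all genes were, and the median interaction was -1.97 for the 7 stefin A genes and 0.30 for all genes. Cstdc5 (-1.70, adjusted p = 0.0932), Cstdc4 (-1.57, adjusted p = 0.167) and Stfa2l1 (-0.74, adjusted p = 0.373) were not called. With a pseudocount of 0.1 no member was called, and leaving out library 38 of N_P, library 10 of T_GC or library 94 of N_GC left 2 called. The call of Stfa1 was the least stable: it was kept in 13 of 24 alternatives and was lost without a filter, in the fit of the compared libraries and without any 1 of the T_P libraries, among others. Without library 37 of T_GC the interaction was -3.57 for Stfa2, -3.55 for Stfa3 and -2.40 for Cstdc5, which was then called (adjusted p = 0.00676).

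**Figure D2:**
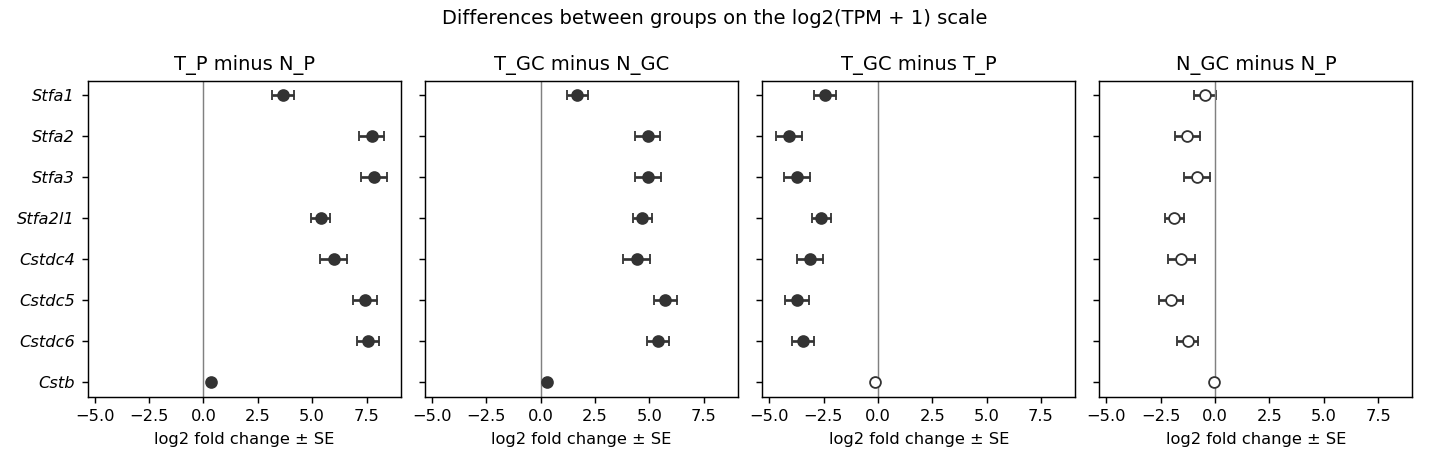
Log2 fold change of each member on the log2(TPM + 1) scale in the 4 tested comparisons, each titled by the group minus its comparator; bars are the SE and filled points have a limma adjusted p under 0.05. All 8 members are to the right of 0 in both tumour comparisons, the 7 stefin A genes are to the left of 0 for T_GC minus T_P, and no point is filled for N_GC minus N_P.

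For code I, whose difference led to the list, the values are given as a description only. The stefin A sum was 5311, 14187 and 4292 TPM in T_I libraries 8, 12 and 27, against 36.8, 42.9 and 54.6 TPM in N_I libraries 18, 92 and 96. The ratio of the means was 177, or 7.47 on the log2 scale, and 6.75 without library 12. T_I averaged 7930 ± 5443 TPM and T_P 6169 ± 649 TPM (SD, n = 3 each), and every T_P library lay within the range of T_I. From high to low, the group means ran T_I, T_P, T_GC, N_P, N_I and N_GC, and the ranges of T_I and T_P, and those of N_P and N_I, overlapped. The first place of T_I rested on library 12. Libraries 8 and 27 of T_I lay below every T_P library, the lowest of which stood at 5607 TPM. Library 18 of N_I was low in S100a8 plus S100a9, at 1580 TPM against 4839 and 4560 TPM in libraries 92 and 96, but its stefin A sum was close to theirs.

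Library 12 of T_I held more of every stefin A gene than any other library. Stfa2 stood at 782, 2060 and 590 TPM in T_I libraries 8, 12 and 27, Cstdc5 at 1245, 3134 and 968 TPM, and Stfa2l1 at 843, 2476 and 753 TPM. Other neutrophil transcripts did not follow one direction in that library. S100a8 and S100a9, the calprotectin subunits, summed to 150939, 143861 and 145506 TPM in libraries 8, 12 and 27, and Ly6g, a neutrophil surface marker, stood at 582, 450 and 643 TPM. Retnlg, a transcript of mature neutrophils, stood at 2944, 3971 and 2750 TPM. The part of cell composition in the stefin values of library 12 was not tested.

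The make-up of the stefin A sum differed with the tumour, a measure other than its level. Stfa2l1 made up 21.7% of the sum in T_P and T_GC combined and 39.01% in N_P and N_GC, 17.3 percentage points less with tumour. Cstdc5 made up 20.2% with tumour and 10.1% without, and Cstdc6 18.7% with tumour and 10.1% without. For each of these 3 genes the exact two-sided permutation test within codes (6 against 6 libraries) gave p = 0.005, the smallest it allows, and an adjusted p of 0.0117 over the 7 genes. The shares of the 7 genes add up to the whole, so 1 share falls as others rise, and the part of reads exchanged between copies was not tested.

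Within T_P the shares hardly varied, at 16.1% ± 0.657 for Stfa2l1 and 22.7% ± 0.727 for Cstdc5 (SD, n = 3). T_GC lay between T_P and the tumour-free groups for Stfa2l1, at 27.3% ± 3.99, against 16.1% in T_P and 37.8% ± 7.85 in N_GC; this order was not tested. In N_I, Stfa2l1 made up 52.1% ± 3.17 of the sum, on average more than the other 6 genes combined. Cstdc4 made up 17.02% with tumour and 27.1% without (exact permutation p = 0.025, adjusted p = 0.035), Stfa1 0.521% and 2.42% (adjusted p = 0.035), and Stfa2 11.9% and 6.31% (adjusted p = 0.0408). These 3 calls were lost in most runs that left out 1 library. Stfa3 made up 9.90% with tumour and 4.94% without and was not called (exact permutation p = 0.07).

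**Figure D3:**
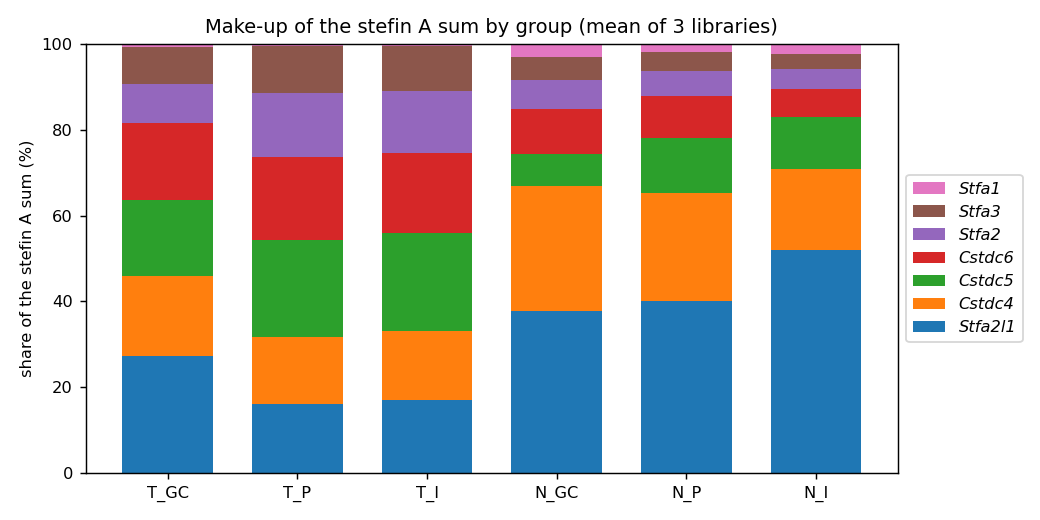
Mean percentage of the stefin A sum from each of the 7 genes in each group (3 libraries a group, stacked to 100%). Stfa2l1 takes 16.1% in T_P and 40.2% in N_P, while Cstdc5 takes 22.7% in T_P and 12.7% in N_P.

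Cstb, the stefin B gene, stayed between 60.2 and 90.5 TPM in all libraries. It stood at 90.5, 79.3 and 78.8 TPM in T_P, against 71.4, 60.2 and 64.8 TPM in N_P, and every T_P library was above every N_P library. The log2 fold change was 0.34 ± 0.09 (limma adjusted p = 0.00501), a difference of the means of 1.27-fold, and 0.83 (adjusted p = 1.26e-05) after median-of-ratios scaling. In T_GC it stood at 74.7, 76.4 and 77.2 TPM, against 61.1, 61.2 and 65.6 TPM in N_GC, a log2 fold change of 0.28 ± 0.09 (adjusted p = 0.0327). That call was lost without a filter on low genes (adjusted p = 0.0550) and without library 21 or 37 of T_GC or library 11 or 36 of N_GC.

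Between T_GC and T_P, Cstb had a log2 fold change of -0.12 ± 0.09 (limma adjusted p = 0.287), and -0.60 (adjusted p = 0.000377) after median-of-ratios scaling, so a fall was called only under that scaling. Its part of the 8-gene sum ranged from 1.14% to 1.59% in T_P and from 44.0% to 59.4% in N_P. It ranged from 5.68% to 19.5% in T_GC and from 72.6% to 86.7% in N_GC. Most stefin transcript was thus stefin B in N_GC and N_I, and stefin A in each T library.

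The papain-like cysteine cathepsins, among them the stefin targets named above, did not rise as a group with the stefin A genes. Of 10 cathepsins, 9 were tested. For T_P against N_P, 0 were called higher and 6 lower, against 50.3% of all genes (8367) called lower. After median-of-ratios scaling 2 were higher and 4 lower, where 5407 of all genes were higher and 5040 lower. Without scaling the median of the 9 was -0.73, against -0.41 for all genes. Ctsw, a cathepsin of cytotoxic lymphocytes, averaged 7.91 ± 2.64 TPM in T_P and 68.6 ± 10.2 TPM in N_P (SD, n = 3 each; limma log2 fold change -2.99, adjusted p = 1.55e-09). Ctss, the cathepsin S of antigen-presenting cells, averaged 207 ± 31.9 TPM in T_P and 425 ± 18.5 TPM in N_P (log2 fold change -1.04, adjusted p = 3.90e-07). Ctsb, a lysosomal cathepsin, averaged 379 ± 10.8 TPM in T_P and 447 ± 24.1 TPM in N_P and was not called (adjusted p = 0.239).

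For T_GC against N_GC, 3 cathepsins were called higher and 3 lower, where 14.3% of all genes (2383) were higher and 18.9% (3149) lower. After scaling the counts were 3 and 1, where 3004 of all genes were higher and 2163 lower. For T_GC against T_P, 6 were higher and 0 lower, where 49.1% of all genes (8173) were called higher. After scaling 4 were higher and 2 lower, where 3847 of all genes were higher and 4726 lower. For N_GC against N_P, 0 of the 9 were called. The summed cathepsin level was 1437 to 1828 TPM in T_GC, 963 to 1125 TPM in T_P, 1385 to 1462 TPM in N_GC and 1512 to 1543 TPM in N_P. Against 100 TPM of cathepsin transcript there were 42.7 ± 25.3 TPM of stefin A in T_GC and 599 ± 109 TPM in T_P, and 1.12 ± 0.599 TPM in N_GC and 3.94 ± 1.80 TPM in N_P (SD, n = 3 each). Without library 37 the T_GC mean was 28.99 TPM. Stefin A transcript thus exceeded cathepsin transcript in every T_P library and lay below it in every library of the other 3 of these groups.

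Other protease inhibitors moved in both directions. Of 13 other cystatin genes, 2 passed the filter and 9 were at 0 in every library. Cst7, the endolysosomal cystatin F of leukocytes, averaged 55.7 ± 6.14 TPM in T_P and 20.7 ± 0.899 TPM in N_P (limma log2 fold change 1.38, adjusted p = 4.51e-08), and 21.3 ± 2.89 TPM in T_GC and 21.0 ± 0.125 TPM in N_GC. Cst3, the secreted cystatin C, averaged 580 ± 30.5 TPM in T_P and 647 ± 16.6 TPM in N_P. Its limma log2 fold change was -0.16 (adjusted p = 0.0738), and after median-of-ratios scaling it was 0.34 and called higher (adjusted p = 0.0105). Of 12 other leukocyte protease inhibitors tested, 7 were called higher and 3 lower in T_P against N_P. Of all genes, 18.9% were called higher and 50.3% lower. The median of the 12 was 0.52, against -0.41 for all genes. Serpinb1a, an inhibitor of neutrophil serine proteases, rose by 1.99 on the log2 scale, and Wfdc17 and Wfdc21, whey acidic protein family genes, rose by 4.53 and 5.66. Serpinb9, an inhibitor of granzyme B, fell by 2.21.

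Genes of neutrophils and their precursors moved, by their medians, in the same direction as the stefin A genes in the 2 tumour comparisons. The same held between T_GC and T_P and between N_GC and N_P. For T_P against N_P, all 8 genes of primary granules and promyelocytes, all 11 of secondary and tertiary granules and 10 of 11 of mature neutrophils were called higher, with medians of 7.09, 5.15 and 3.48. For T_GC against N_GC, 7 of 8, 11 of 11 and 10 of 11 were called higher, with medians of 5.75, 6.35 and 3.69, beside 4.93 for the stefin A genes. For T_GC against T_P, 8 of 8, 9 of 11 and 9 of 11 were called lower, with medians of -3.28, -1.71 and -1.65. The stefin A median in that comparison was -3.44. Of all genes, 18.9% were called higher for T_P against N_P and 14.3% for T_GC against N_GC, while 12.7% were called lower for T_GC against T_P. For N_GC against N_P, 6 of 8, 9 of 11 and 6 of 11 genes of the lists were called lower, against 0.745% of all genes. Their medians were -1.80, -2.50 and -1.18. No stefin was called there, and the stefin A median was -1.28. In the interaction, where the stefin A median was -1.97, the lists went in different directions. The median was -1.38 for the primary granule genes, with 4 of 8 called lower. It was 1.20 for the secondary and tertiary granule genes (3 higher and 1 lower of 11) and 0.22 for the mature neutrophil genes (1 of 11 lower). Of all genes, 31.2% were called higher and 8.15% lower. After scaling, 2359 of all genes were called higher and 3292 lower, against 5185 and 1355 without scaling. With scaling, 5 of 8 primary granule genes were called lower and 0 higher. Of the secondary and tertiary granule genes 0 were then higher and 1 lower, and of the mature neutrophil genes 0 were higher and 2 lower. Cst7 stands in both the cystatin and the primary granule list. The part of cell numbers in the stefin values was not tested.

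Per unit of neutrophil transcript, stefin A differed by far less between T and N, and the direction depended on the transcripts used and on the code. Against 100 TPM of S100a8 plus S100a9 there were 4.19 ± 0.588 TPM of stefin A in T_P and 1.99 ± 0.748 TPM in N_P, and the libraries did not overlap. There were 1.89 ± 1.19 TPM in T_GC and 2.77 ± 0.507 TPM in N_GC, and these overlapped through library 37 alone. Without library 37 the T_GC mean was 1.21 TPM, and both remaining libraries lay below N_GC. Against 100 TPM of Retnlg, Cxcr2 and Csf3r, transcripts of mature neutrophils, there were 47.7 ± 31.3 TPM of stefin A in T_GC, 146 ± 18.8 TPM in T_P, 11.4 ± 0.979 TPM in N_GC and 23.1 ± 7.30 TPM in N_P, and the T_GC mean was 29.6 TPM without library 37. Against 100 TPM of Ltf, Camp and Ngp, secondary granule transcripts, there were 7.11 ± 4.70 TPM in T_GC (4.41 TPM without library 37), 20.4 ± 2.35 TPM in T_P, 37.1 ± 14.1 TPM in N_GC and 10.3 ± 5.09 TPM in N_P. By this measure every T_GC library lay below every N_GC library, and every T_P library above every N_P library. Against 100 TPM of Mpo, Elane, Prtn3 and Ctsg, proteins of primary granules, there were 156 ± 91.5 TPM in T_GC (114 TPM without library 37), 131 ± 7.20 TPM in T_P, 591 ± 260 TPM in N_GC and 263 ± 144 TPM in N_P (SD, n = 3 each). With this last measure T_GC and T_P overlapped, and the 2 tumour groups were lower than N_GC. The sums behind the ratios were lower in T_GC than in T_P by 4.06-fold for S100a8 plus S100a9, by 10.3-fold for the primary granule genes, by 3.12-fold for Ltf, Camp and Ngp and by 2.87-fold for Retnlg, Cxcr2 and Csf3r, beside 8.69-fold for stefin A.

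**Figure D4:**
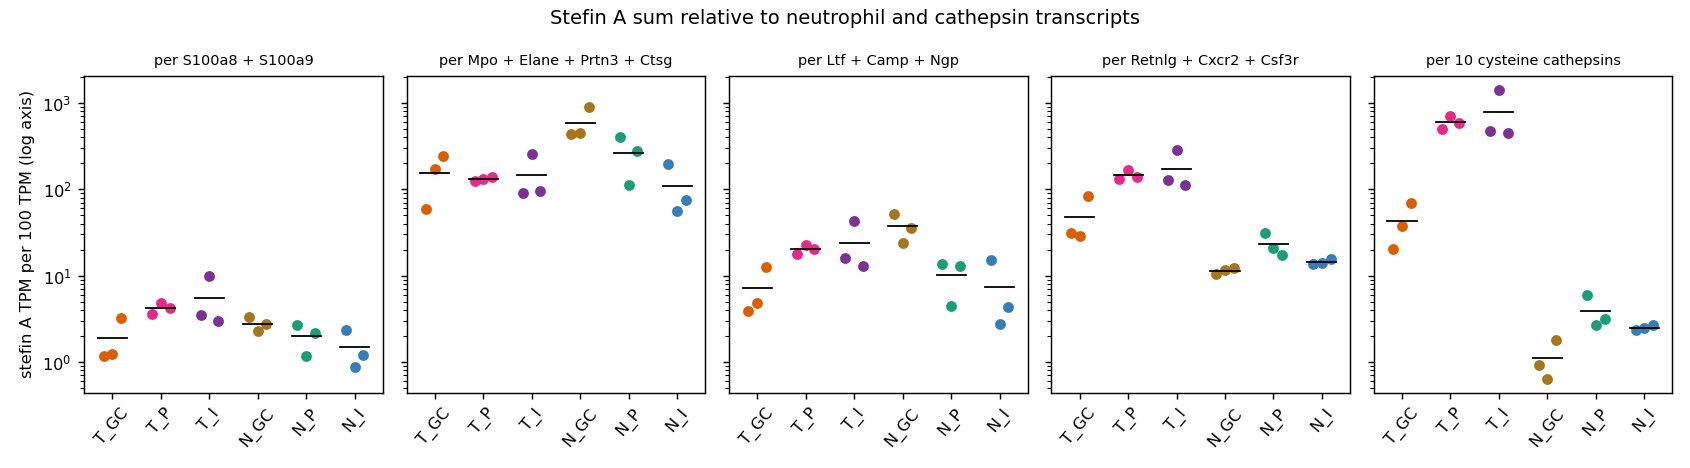
Stefin A sum per 100 TPM of 5 other transcript sums in each library (points; lines are the mean of 3; log axis). T_GC and T_P overlap per Mpo, Elane, Prtn3 and Ctsg, at means of 156 and 131, and lie apart per cathepsin transcript, at means of 42.7 and 599.

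The gene whose pattern was most like the stefin A sum was sought over 12810 genes with a symbol, as the root mean square difference over the 18 libraries between log2(TPM + 1) values, each centred on its own mean. The nearest 10 were Ms4a3 (0.67), Ctsg (0.69), Ifitm6 (0.72), Elane (0.77), Prtn3 (0.82), Cd177 (0.83), S100a8 (0.83), Wfdc21 (0.85), S100a9 (0.86) and Prg2 (0.87). Ms4a3 is a marker of granulocyte and monocyte progenitors, Ctsg, Elane and Prtn3 encode serine proteases of primary granules, and Prg2 encodes eosinophil major basic protein. Ms4a3 stood at 39, 28.4 and 40.1 TPM in T_GC, 372, 421 and 357 TPM in T_P and 1.48, 2.63 and 1.17 TPM in N_P. Within T_GC it was level between libraries 10 and 37, while the stefin A sum was 308 and 1282 TPM there. The members that contribute to the sum differed from it by 0.46 (Cstdc5) to 1.76 (Stfa1), and Cstb, which does not, by 3.36.

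Other cells also moved. Eosinophil marker sums were 134 to 167 TPM in T_GC, 509 to 929 TPM in T_P, 45.6 to 54.2 TPM in N_GC and 49.8 to 69.4 TPM in N_P. All 4 eosinophil and all 5 mast cell and basophil markers were called higher in both tumour comparisons. Of all genes, 18.9% were called higher for T_P against N_P and 14.3% for T_GC against N_GC. For T_GC against T_P all of them were called lower, with medians of -2.59 and -0.85, where 12.7% of all genes were lower. In the interaction 3 of 4 eosinophil markers were lower (median -2.13), where 8.15% of all genes were. None of the 5 mast cell and basophil markers was called there (median -0.26). Of 5 monocyte and macrophage markers, 1 was called higher and 3 lower for T_P against N_P, where 50.3% of all genes were lower. For T_GC against N_GC, 2 of these 5 were higher and 0 lower. Stefin A is also known from keratinocytes, and their 7 markers summed to 0.53 to 2.23 TPM in T_GC, 0.11 to 0.7 TPM in T_P, 0.97 to 1.49 TPM in N_GC and 0.84 to 1.9 TPM in N_P. Krt5 and Krt14, the defining keratins of basal keratinocytes, were at 0 in every library. The 6 epithelial and tumour cell markers summed to 7.68 to 8.21 TPM in T_GC, 5.81 to 6.15 TPM in T_P, 3.05 to 4.06 TPM in N_GC and 4.77 to 5.14 TPM in N_P.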

How the data were processed

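The authors deposited a table of TPM, with 56876 genes and 18 libraries. It was made with fastp and RSEM on GRCm39, per the submitters' processing notes (no versions given). RSEM divides reads that match several transcripts by estimated probability, so near-identical stefin copies can exchange reads; read length and depth are unknown, and no interval or count test was possible. From there, genes reaching 1 TPM in 3 or more libraries were kept (16635), which each of the 8 members met in the 9 N libraries alone. limma 3.58.1 in R 4.3.3 fitted log2(TPM + 1) with 6 group means, a trend in the prior variance and 12 residual degrees of freedom; p-values are two-sided and adjusted by Benjamini-Hochberg over all genes tested. The fit was tested on simulated data for the recovery and size of shifts added to well-expressed genes, which does not cover genes near 0 TPM. Shares of the stefin A sum were tested by exact permutation of T and N within codes P and GC.

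The members, gene lists and tests were chosen with earlier results of these data known. Comparisons with code I libraries carry no p-value because the list was made after they had been seen. Named genes are the members, the 10 nearest by pattern, neutrophil comparators, the cathepsins and cystatins that pass the filter and up to 3 of each other list with the smallest p. Krt5 and Krt14 are named as markers at 0, outside that rule. Coding sequences and gene order come from GENCODE M21 (GRCm38), matched by gene identifier, with the longest coding transcript of each gene; identity of coding sequences stands in for a planned comparison of proteins. Promoters come from RefSeq (GRCm38.p6). Alternatives were a pseudocount of 0.1, no filter or one of 5 TPM, median-of-ratios scaling, fits of only the compared libraries, robust moderation, TPM without S100a8 and S100a9, the 8-gene sum, and leaving out each library. Ratios to other transcripts without library 37 of T_GC were added after the data were seen. The runs of bases shared by promoters were picked after the windows were seen.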

Additional observations from a re-analysis of the deposited data

Results flagged for a closer look

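For 4 stefin A genes the tumour difference was smaller with code GC than with code P by the limma interaction test, on the log2(TPM + 1) scale. The interaction was -2.88 for Stfa3, -2.81 for Stfa2, -2.17 for Cstdc6 and -1.97 for Stfa1, with adjusted p-values of 0.0141, 0.0144, 0.0222 and 0.0356. The log2 fold change of Stfa2 was 4.93 for T_GC against N_GC and 7.73 for T_P against N_P, and that of Stfa3 was 4.95 and 7.83. Those of Cstdc6 were 5.40 and 7.57, and those of Stfa1 were 1.69 and 3.66. The 4 genes stood at 0 to 3.37 TPM in N_GC. With a pseudocount of 0.1 in place of 1 the interaction was -2.01 for Stfa3, -2.05 for Stfa2, -1.72 for Cstdc6 and -1.40 for Stfa1, none of them called. The call of Stfa1 was kept in 13 of 24 alternatives. The other 3 stefin A genes had negative interactions that were not called.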

How the results depend on the processing

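No called stefin value changed sign under any setting. Cstb, not called, turned to 0.0028 for N_GC against N_P without library 17 of N_P. It turned to 0.0067 in the interaction without library 26 of T_P. Under median-of-ratios scaling other genes turned too, among them cathepsins and other cystatins. For T_P against N_P, Cst3 turned to 0.34 (called) and Ctsb to 0.26 (not called). Ctsz, called lower there without scaling, turned to 0.21 (not called). For T_GC against T_P, Cst3, called higher without scaling, turned to -0.16 (not called). Ctsl turned to -0.11 (not called) and Ctsz to -0.30 (called) in that comparison. All 8 members stayed called higher for T_P against N_P, and all 7 stefin A genes lower for T_GC against T_P, in each run that left out 1 library and under each other setting. For T_GC against N_GC, 6 to 8 members were called when 1 library was left out. For N_GC against N_P the count was 2 with a pseudocount of 0.1, 1 with a filter of 5 TPM and 0 to 2 when 1 library was left out. The interaction count was 0 with a pseudocount of 0.1 and 2 to 5 when 1 library was left out; the cause was not tested. Stfa1 lost its interaction call in 11 alternatives and Cstdc6 in 4. Under median-of-ratios scaling the interaction of Cstdc5 (adjusted p = 0.0460) and of Cstb (-0.45, adjusted p = 0.0393) was called. With Cstb added, the log2 ratio of the sum was 5.64 for T_P against N_P, 3.33 for T_GC against N_GC, -0.68 for N_GC against N_P and 6.10 for T_I against N_I. In the runs that left out 1 library, the adjusted p of the share difference ranged from 0.007 to 0.0233 for Stfa2l1, Cstdc5 and Cstdc6, and reached 0.105 for Stfa1, 0.077 for Stfa2 and 0.077 for Cstdc4. Scaling moved the median of all genes by 0.39 for T_P against N_P and by -0.39 for T_GC against T_P. No paired analysis was possible because the groups share no replicate numbers. With 3 libraries a group and unknown depth, levels near 0 TPM in N libraries carry an error that cannot be given.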

Other observations

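Other genes of the stefin A cluster, outside the list and chosen after their values were seen, were low throughout. Csta3 stood at 0, 2.32 and 4.24 TPM in T_GC, 7.18, 1.72 and 6.11 TPM in T_P and 4.5, 8.57 and 6.17 TPM in T_I, against 1.21 TPM in library 17 of N_P and 0 in the other 8 N libraries. Csta2 stood at 0 to 0.44 TPM in T_GC, 0.39 to 0.97 TPM in T_P and 0.53 to 2.83 TPM in T_I and was listed at 0 in all 9 N libraries. Csta1 did not exceed 0.07 TPM in any library. The part of reads exchanged between these genes and the members was not tested.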
